A study of Rattus norvegicus with 16 samples.

Results

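Ubiquitin-conjugating enzymes, or E2 enzymes, were taken as the genes whose symbol starts with Ube2 and a further letter, without the mitotic gene Ube2c, from the expression tables of a rat brain injury study. There were 27 such genes among the 16405 different symbols listed for the hippocampus, and 28 among the 16395 listed for blood. Together these are 28 genes, 27 of them listed in both tables. Several rows can carry one symbol, and then the most abundant of them stood for the gene, which concerns Ube2f in both tables and Ube2e2 in blood. One of the 28, Ube2cbp, is not an E2 by function: its product binds the E2 encoded by Ube2c and is itself a ubiquitin ligase, and RefSeq now lists the gene as Ube3d.

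The rats were male Sprague Dawley animals that underwent fluid percussion injury, a model of traumatic brain injury (TBI) in which a fluid pulse strikes the brain, or a sham operation. All were tested for learning and killed 1 week after surgery. Poly-A RNA was sequenced from TBI and sham white blood cells (WBC) and from TBI and sham CA1, a field of the hippocampus rich in pyramidal neurons, with 4 libraries in each of the 4 groups. The labels give no genotype, age or pooling of animals and tie no CA1 library to a WBC library of the same rat, and the p-values cover the spread among these libraries, which may in part be technical.

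Ubiquitin is a small protein that is attached to other proteins in a relay. An E1 enzyme activates it, an E2 carries it on a catalytic cysteine, and an E3 ligase chooses the substrate and brings the loaded E2 to it. The E2 largely sets the kind of chain that is built: some chains send proteins to the proteasome, others serve in signalling and DNA repair, and a few E2s carry relatives of ubiquitin such as NEDD8 or ISG15 instead. Neurons depend on this relay for synaptic protein turnover, and maturing red cells use it to strip out proteins and organelles as they become erythrocytes.

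Levels are given in FPKM, in which fragments are divided by the length of the transcript and the size of the library. This unit gives no fragment numbers, so the absolute depth is unknown. The spacing of the smallest values placed the depth of the other libraries at 0.853 to 0.993 of sham 1 in CA1 and at 0.801 to 1.38 of sham 1 in WBC. Only ratios close to equal depth were searched, so a larger difference could not have been found. Each value is the most frequent ratio, which in WBC TBI 1 was shared by only 33 of 527 rows. Across rows, Pearson's r between pairs of libraries reached from 0.967 to 0.981 for CA1 and from 0.91 to 0.968 for WBC. The pyramidal neuron, T cell, B cell and myeloid lists of cell markers followed the tissue labels. Not every list did. Markers of choroid plexus, tissue beside the hippocampus, summed to 610 to 733 FPKM in sham WBC, mostly from Aqp1 (599 to 722 FPKM). In sham CA1 they summed to 18.8 to 1313 FPKM. Pyramidal neuron markers summed to 4863 to 5302 FPKM in TBI CA1 and 4566 to 6547 FPKM in sham CA1, where B cell markers stayed between 0.12 and 0.487 FPKM. T cell, B cell and myeloid markers were each present in WBC, at 437 to 2227 FPKM in the sums of TBI libraries and 631 to 2025 FPKM in those of sham libraries. Red cell and reticulocyte markers were higher than any of these, at 7074 to 16830 FPKM in TBI WBC and 17820 to 27570 FPKM in sham WBC, so red cell RNA was present in every blood library.

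Differences are TBI minus sham on the log2(FPKM + 0.5) scale, which understates the change of low genes, and were tested with limma over every row with a mean of at least 1 FPKM. Of the 28 genes, 24 were tested in WBC and 25 in CA1. Ube2t and Ube2d4 stayed under that mean in both tissues, and Ube2ql1 and Ube2q2l in WBC. No member passed an adjusted p of 0.05 in either tissue (limma, Benjamini-Hochberg over 13413 and 14637 rows), where 0% of all WBC rows and 0.00683% of all CA1 rows did. At an unadjusted p under 0.05 there were 7 members in WBC, all lower in TBI, where 20.3% of all rows reached that p, and 1 in CA1, higher in TBI, where 5.14% of all rows did.

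In the blood of injured rats the lower members were Ube2b, Ube2v1, Ube2h, Ube2l3, Ube2l6, Ube2f and Ube2d3. The 7 make up 29.2% of the 24 tested, where 12.5% of all WBC rows were lower at that p. The TBI libraries lay wholly below the sham libraries in Ube2n and in 6 of these 7, all but Ube2l6, so that 29.2% of the members were separated in this direction against 8.63% of all rows, and none in the other direction, where 5.61% of all rows were. Of the 24 tested members 18 had a difference below 0, with a median of -0.10, against -0.0031 over all rows. In CA1 the median of the members was 0.02, against -0.01 over all rows, and 17 of 25 lay above 0, where 53.3% of all CA1 rows lay below 0. The exact set that is lower depends on scaling: after quantile normalization 13 of the 24 WBC members were below 0 and the median was -0.019, and Ube2d3 turned to 0.13.

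**Figure D1:**
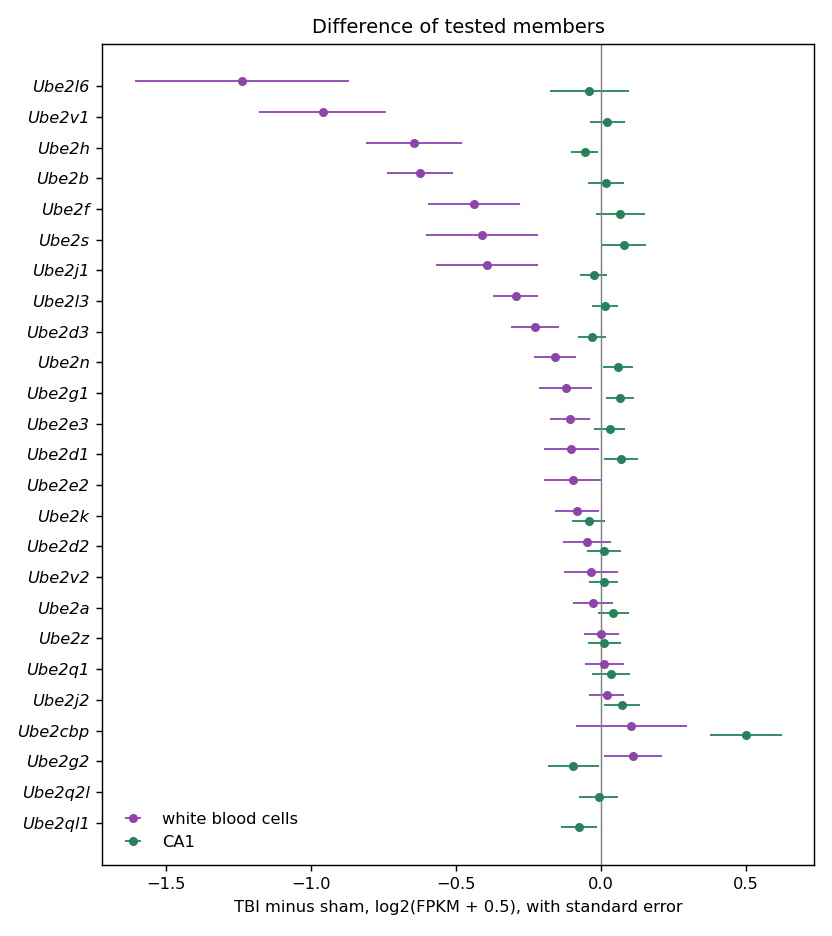
The points give the difference of TBI minus sham on the log2(FPKM + 0.5) scale for tested members in white blood cells and in CA1, with its standard error (n = 4 libraries per group). In white blood cells the values reach from -1.24 for Ube2l6 to 0.11 for Ube2g2, whereas in CA1 all but Ube2cbp (0.50) lie between -0.09 and 0.08.

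The promoters of 5 of the lower members are shown because these are the 5 members with the smallest p in WBC. Each covers 250 bases before and 50 after the transcript start as RefSeq gives them on build GRCr8, 5′ to 3′ on the gene's strand, matched by symbol, as the deposited tables were made on rn5. Capitals mark matches on either strand to the GATA motif AGATAA, the GC box GGGCGG, the CCAAT box CCAAT, the TATA motif TATAAA or the interferon-stimulated response element (ISRE); matches of different motifs were allowed to overlap.
Ube2b (chr10:36763894-36764193, minus strand): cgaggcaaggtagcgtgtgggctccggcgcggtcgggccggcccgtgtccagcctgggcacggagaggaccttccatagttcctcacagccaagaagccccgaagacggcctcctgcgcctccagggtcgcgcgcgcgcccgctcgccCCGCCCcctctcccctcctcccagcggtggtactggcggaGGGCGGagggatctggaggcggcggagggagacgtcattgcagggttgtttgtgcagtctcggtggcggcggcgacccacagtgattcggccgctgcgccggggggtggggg
Ube2v1 (chr3:176759125-176759424, minus strand): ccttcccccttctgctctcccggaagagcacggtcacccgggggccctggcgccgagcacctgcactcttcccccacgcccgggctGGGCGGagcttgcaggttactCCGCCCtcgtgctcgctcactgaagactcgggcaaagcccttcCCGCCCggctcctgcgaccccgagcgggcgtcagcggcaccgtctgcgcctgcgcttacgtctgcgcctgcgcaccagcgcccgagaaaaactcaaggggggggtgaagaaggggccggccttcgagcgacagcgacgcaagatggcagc
Ube2h (chr4:59897534-59897833, minus strand): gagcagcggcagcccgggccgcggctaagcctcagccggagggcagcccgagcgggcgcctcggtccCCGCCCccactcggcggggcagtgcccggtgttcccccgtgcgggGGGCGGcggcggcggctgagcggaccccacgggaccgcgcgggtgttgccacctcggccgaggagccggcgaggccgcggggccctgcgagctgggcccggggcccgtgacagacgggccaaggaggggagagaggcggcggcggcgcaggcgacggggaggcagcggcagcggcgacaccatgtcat
Ube2l3 (chr11:97301695-97301994, plus strand): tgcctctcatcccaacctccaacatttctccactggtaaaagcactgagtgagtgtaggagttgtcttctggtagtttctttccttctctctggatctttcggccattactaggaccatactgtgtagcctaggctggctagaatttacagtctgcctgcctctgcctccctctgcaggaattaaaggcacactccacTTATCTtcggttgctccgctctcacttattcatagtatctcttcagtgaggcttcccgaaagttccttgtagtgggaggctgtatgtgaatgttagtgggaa
Ube2l6 (chr3:90279455-90279754, plus strand): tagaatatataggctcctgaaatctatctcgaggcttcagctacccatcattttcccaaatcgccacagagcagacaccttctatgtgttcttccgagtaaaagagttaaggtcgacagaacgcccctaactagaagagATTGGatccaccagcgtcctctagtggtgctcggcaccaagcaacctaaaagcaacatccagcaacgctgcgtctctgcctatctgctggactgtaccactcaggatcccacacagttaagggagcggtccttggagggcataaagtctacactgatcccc

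GC boxes were in the windows of Ube2b, Ube2v1 and Ube2h, and in 18 of the 25 members with a RefSeq promoter, against 34.5% of all 27457 promoters. The window of Ube2l3 held the only GATA motif among the 25, a motif found in 11.3% of all promoters. A match to the ISRE lay in the window of Ube2d3 alone among the 25, against 3.82% of all promoters. CCAAT boxes were in 8 and the TATA motif in 2 of the 25, against 37.6% and 14.3% of all. These matches describe letters in one window and say nothing of the factors that bind.

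Ube2b and Ube2a are the mammalian counterparts of yeast Rad6. They ubiquitinate histone H2B and the replication clamp PCNA, and Ube2b is one of the E2s long known from reticulocytes. Ube2b stood at 78.6, 86.8, 91.7 and 80.0 FPKM in TBI WBC, against 131, 145, 141 and 106 FPKM in sham WBC. Every TBI library was below every sham library, by a difference of -0.62 ± 0.11 (SE; limma adjusted p = 0.127), and the ratio of the means was 0.645. Quantile normalization brought this difference to -0.34. In CA1 the gene stood at 60.8 to 63.4 FPKM in TBI and 56.7 to 67.7 FPKM in sham, a difference of 0.02. Its near-identical relative Ube2a was at 17.5 ± 0.937 FPKM in TBI WBC and 17.8 ± 0.791 in sham WBC (SD, n = 4 each), with overlapping groups, and at 37.5 ± 1.15 in TBI CA1 and 36.4 ± 1.99 in sham CA1. Reads can be shared between such relatives, so the split of the pair is less certain than its sum.

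Seen as a share of the pair, Ube2b made up 80.8, 83.1, 84.7 and 82.5% of the summed Ube2a and Ube2b FPKM in TBI WBC, against 87.8, 89.7, 88.5 and 85.4% in sham WBC. Here too the TBI libraries lay below all sham libraries. In CA1 the share was 61.7 to 63.2% in TBI and 61.8 to 64.1% in sham. This share was looked at after the values of both genes were seen, and was not tested; being a ratio within a library, it does not move with a scaling factor of the library.

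Ube2v1 and Ube2v2 are E2 variants without the catalytic cysteine. Either pairs with Ube2n, and the pair builds signalling chains linked through Lys63, a lysine of ubiquitin. Such chains are used in innate immune pathways and in tolerance of DNA damage. Ube2v1 stood at 17.5, 32.0, 33.4 and 29.5 FPKM in TBI WBC, against 42.4, 66.9, 54.9 and 52.4 FPKM in sham WBC. The groups did not overlap and TBI 1 was the lowest library, with a difference of -0.96 ± 0.22 (SE; limma adjusted p = 0.127) and a ratio of means of 0.519. RefSeq lists 19 pseudogenes and 2 further loci named after Ube2v1, more than for any other member, so the assignment of its fragments is uncertain.

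The other variant, Ube2v2, was nearly even, at 8.08 ± 0.699 FPKM in TBI WBC and 8.29 ± 0.743 in sham WBC. Their partner Ube2n stood at 41.4, 40.1, 35.1 and 36.5 FPKM in TBI WBC, against 42.7, 43.7, 42.2 and 42.1 FPKM in sham WBC. These groups were also separate, but by a small difference of -0.16 ± 0.07 (SE; limma adjusted p = 0.263), which was -0.01 after quantile normalization. Ube2n has 9 pseudogenes named after it in RefSeq. The ratio of Ube2v1 to Ube2n, both in FPKM, was 0.422, 0.798, 0.952 and 0.809 in TBI WBC, against 0.993, 1.53, 1.30 and 1.25 in sham WBC. All TBI ratios were thus under 1 and below the lowest sham ratio; the comparison was chosen after the values were seen and was not tested. The ratio was 0.174 to 0.200 in TBI CA1 and 0.170 to 0.218 in sham CA1. In CA1 Ube2v2 was the higher variant, at 28.1 ± 0.952 FPKM in TBI and 27.9 ± 0.969 in sham, against 15.8 ± 0.631 and 15.6 ± 1.01 for Ube2v1.

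**Figure D2:**
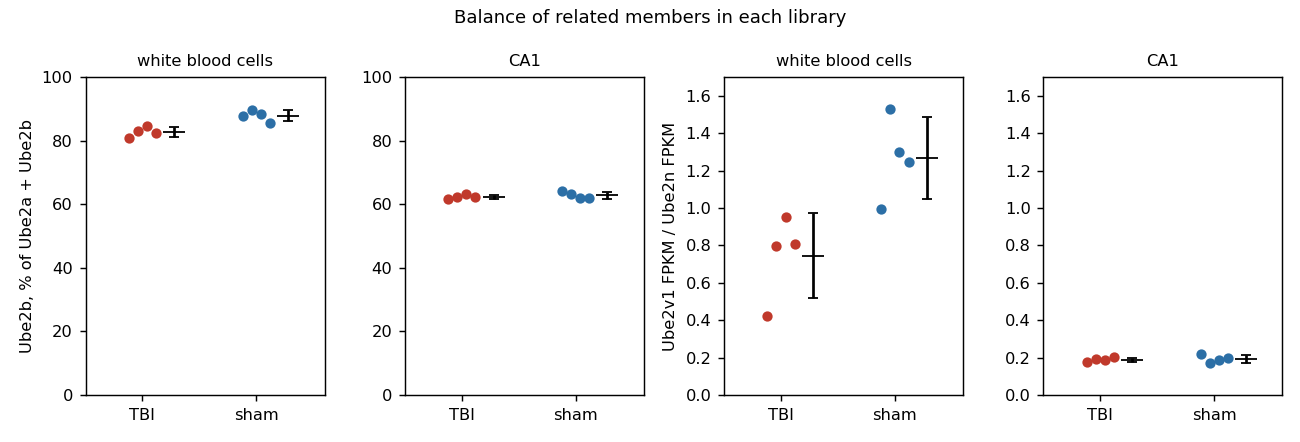
The left pair of panels plots Ube2b as a percentage of the summed FPKM of Ube2a and Ube2b, the right pair the ratio of Ube2v1 to Ube2n FPKM; each point is a library, and the bar beside it the mean with SD (n = 4). In white blood cells the TBI libraries lie below the sham libraries in both measures (80.8 to 84.7% against 85.4 to 89.7%, and 0.422 to 0.952 against 0.993 to 1.53), and in CA1 the groups overlap.

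Among E2s that build degradative chains, Ube2h is known for its high expression in maturing red cells of mouse and human, where it works with the CTLH ligase complex. It stood at 54.5, 70.0, 71.1 and 43.8 FPKM in TBI WBC, against 89.2, 86.5, 108 and 85.7 FPKM in sham WBC. The groups did not overlap, TBI 4 being the lowest library, and the difference was -0.64 ± 0.16 (SE; limma adjusted p = 0.133), or -0.41 after quantile normalization. In CA1 it lay between 40.2 and 44.3 FPKM in TBI and between 43.2 and 44.5 FPKM in sham, a difference of -0.05.

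Ube2l3 serves ligases of the HECT and RING-between-RING types, parkin among them. It was at 28.8, 32.6, 30.8 and 33.0 FPKM in TBI WBC, against 37.8, 41.6, 39.4 and 35.3 FPKM in sham WBC. All TBI libraries were lower, with a difference of -0.29 ± 0.08 (SE; limma adjusted p = 0.137), and quantile normalization brought this to -0.16. In CA1 it stood at 62.7 ± 0.683 FPKM in TBI and 62.1 ± 1.96 in sham (SD, n = 4 each). The other E2s of this group differed less. Ube2g1, which extends chains with cullin ligases, averaged 30.1 ± 1.08 FPKM in TBI WBC and 32.9 ± 3.65 in sham WBC, and Ube2k, which builds chains on its own, 14.7 ± 0.295 and 15.6 ± 1.30. In CA1 their differences were 0.07 and -0.04.

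Ube2d1, Ube2d2, Ube2d3, Ube2e2 and Ube2e3 belong to the UBE2D and UBE2E families, which work with many E3 ligases. Ube2d3 was the most abundant member in blood, at 140, 157, 167 and 160 FPKM in TBI WBC, against 187, 179.5, 186 and 175 FPKM in sham WBC. Every TBI library was below every sham library by this scaling, with a difference of -0.23 ± 0.08 (SE; limma adjusted p = 0.185) that became 0.13 after quantile normalization. In CA1 it was at 113, 115, 116 and 113 FPKM in TBI, against 110, 119, 117 and 121 FPKM in sham, with overlapping groups. Ube2d2 stood at 74.3, 74.9, 71.2 and 70.2 FPKM in TBI CA1, against 77.5, 74.1, 67.5 and 69.5 FPKM in sham CA1, a difference of 0.01 whose sign turned with single libraries. In WBC it averaged 59.8 ± 4.21 FPKM in TBI and 61.9 ± 4.74 in sham. Ube2d1 averaged 19.0 ± 2.13 and 20.3 ± 1.16 FPKM in TBI and sham WBC, and Ube2e3 20.7 ± 0.638 and 22.4 ± 1.43. The UBE2D genes are closely related in sequence, so their fragments may be shared.

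The Ube2e2 row of the WBC table stood at 54.4, 64.2, 65.2 and 60.4 FPKM in TBI, against 58.5, 68.1, 73.9 and 60.9 FPKM in sham. The groups overlapped, with a difference of -0.10 ± 0.10 (SE; limma adjusted p = 0.635) that became 0.13 after quantile normalization. The WBC table has 2 more rows of that symbol, at a mean of 2.16 and 0.831 FPKM, and in the CA1 table the gene appears only in a row shared with Nkiras1, at 102 ± 6.44 FPKM in TBI and 97.9 ± 6.03 in sham. In the newer GRCr8 annotation the neighbour of Nkiras1 is Ube2e1, with Ube2e2 beyond it, so which E2 these rows measure is uncertain. Ube2e1, Ube2o, Ube2r2, Ube2w and Ube2q2 were not analysed here.

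The carriers of ubiquitin-like proteins include the tested member with the lowest ratio of TBI to sham in blood. Ube2l6, the E2 for the interferon-induced modifier ISG15, stood at 6.50, 12.3, 10.1 and 4.30 FPKM in TBI WBC, against 15.9, 32.7, 12.2 and 19.8 FPKM in sham WBC. The ranges touch, since TBI 2 lies just above sham 3, and the libraries of each group spread widely; the difference was -1.24 ± 0.37 (SE; limma adjusted p = 0.146) and the ratio of means 0.412. Sham 2, the highest library, was also the highest for Isg15. Isg15, named here as the modifier this E2 carries, was at 18.7, 50.8, 21.5 and 16.8 FPKM in TBI WBC and 31.4, 109, 19.0 and 70.5 FPKM in sham WBC, with overlapping groups and a difference of -0.92 ± 0.56 (SE; limma adjusted p = 0.393). Uba7, the E1 of the same relay, averaged 35.0 ± 15.4 FPKM in TBI WBC and 55.7 ± 8.45 in sham WBC, a difference of -0.77 (limma adjusted p = 0.233). In CA1 Ube2l6 was low, at 2.78 ± 0.336 FPKM in TBI and 2.89 ± 0.55 in sham.

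Ube2f carries NEDD8, the modifier that switches on cullin ligases, to the cullin partner Rnf7. It stood at 16.01, 24.15, 26.2 and 22.2 FPKM in TBI WBC, against 29.6, 28.05, 35.2 and 26.4 FPKM in sham WBC. The groups were just separate, with the highest TBI library at 26.2 and the lowest sham library at 26.4 FPKM, and the difference was -0.44 ± 0.16 (SE; limma adjusted p = 0.182). The other NEDD8 carrier, Ube2m, appears only in a row shared with its neighbour Chmp2a and is no member by the rule; that row averaged 72.0 ± 10.4 FPKM in TBI WBC and 93.8 ± 16.65 in sham WBC.

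**Figure D3:**
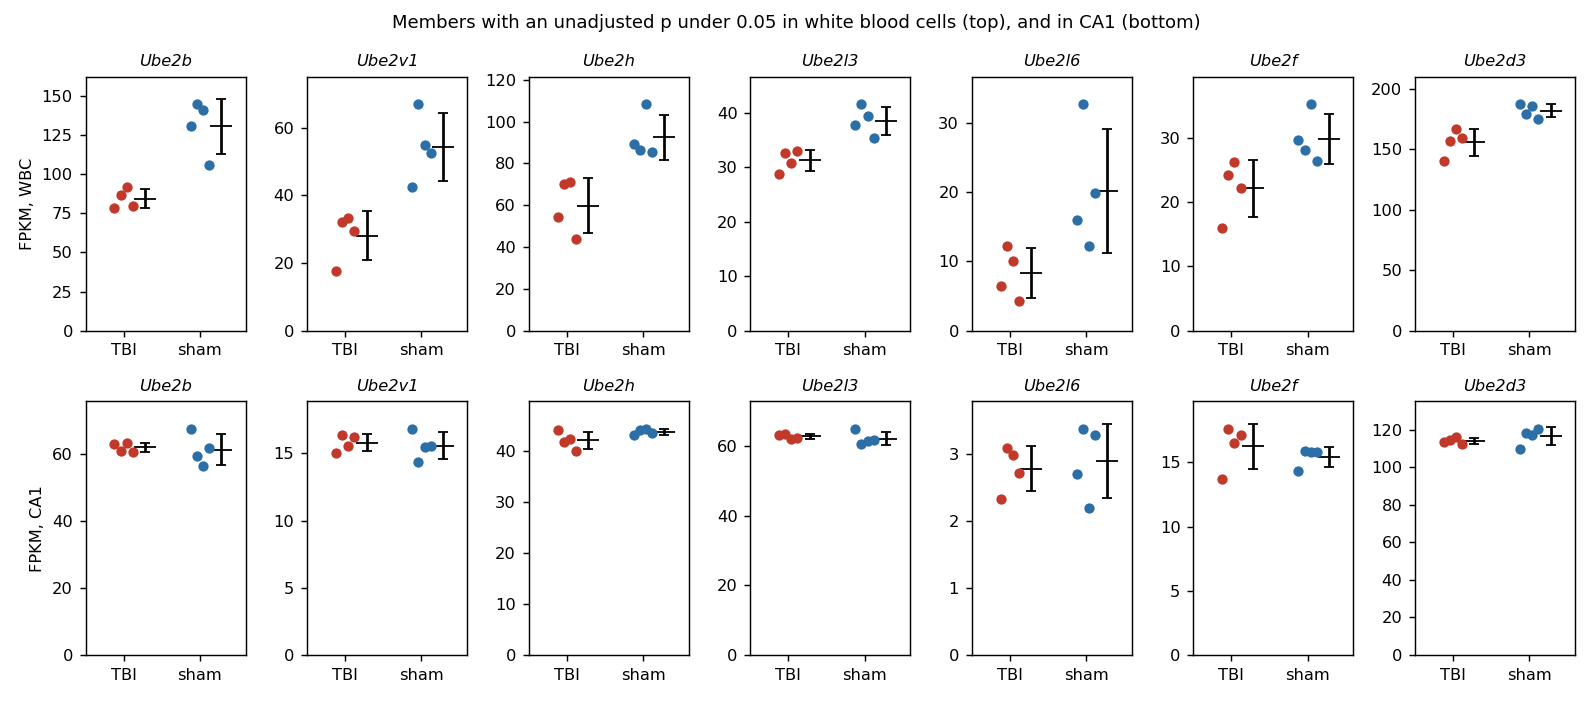
The panels plot FPKM of the 7 members with an unadjusted p under 0.05 in white blood cells (upper row) and of the same genes in CA1 (lower row); each point is a library, and the bar beside it the mean with SD (n = 4). In the upper row TBI lies below sham without overlap in every gene but Ube2l6 (up to 12.3 FPKM in TBI, from 12.2 FPKM in sham), and in the lower row the groups overlap in all 7.

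Ube2s and Ube2j1 were also lower in blood on average, with overlapping groups. Ube2s, which extends chains for the anaphase-promoting complex in mitosis, stood at 74.3, 87.3, 119.6 and 126.5 FPKM in TBI WBC, against 115, 136, 165 and 119 FPKM in sham WBC. TBI 3 and TBI 4 lay inside the sham range, and the difference of -0.41 ± 0.19 (SE; limma adjusted p = 0.276) was -0.13 after quantile normalization. Ube2j1, an E2 anchored in the membrane of the endoplasmic reticulum for the disposal of misfolded proteins, averaged 40.0 ± 9.14 FPKM in TBI WBC and 52.0 ± 7.58 in sham WBC, a difference of -0.39 (limma adjusted p = 0.257). Its companions there, Ube2j2 and Ube2g2, were not below 0: Ube2j2 averaged 47.9 ± 1.24 FPKM in TBI WBC and 47.2 ± 1.34 in sham WBC, and Ube2g2 24.7 ± 3.06 and 22.8 ± 1.54. Ube2q1, at 61.1 ± 1.19 and 60.7 ± 3.58 FPKM, and Ube2z, which takes its cargo from the E1 Uba6, at 18.3 ± 0.755 and 18.3 ± 0.458 FPKM, were the closest to even in blood.

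Summed over the 28 genes, FPKM came to 889, 1006, 1041 and 982 in TBI WBC, against 1140, 1218, 1267 and 1151 in sham WBC, so each TBI library was below each sham library. In CA1 the 27 genes summed to 1169 ± 13.2 FPKM in TBI and 1160 ± 21.3 in sham (SD, n = 4 each). Members were steady within groups: the median coefficient of variation over the tested members was 7.51% in TBI WBC and 8.16% in sham WBC, against 14.3% and 13.8% over all rows. In CA1 it was 3.97% in TBI and 5.31% in sham, against 8.87% and 10.4% over all rows. The members are on the whole abundant genes, and level was not matched in this comparison.

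Markers of red cells and platelets were low in the same libraries. Over all WBC rows 50.4% were below 0, and 12.5% were lower and 7.82% higher at an unadjusted p under 0.05. All 18 tested genes of the red cell list were below 0 in TBI WBC, with a median of -1.01. Of them 16 were lower at an unadjusted p under 0.05 and none passed an adjusted p of 0.05 in limma. Their summed FPKM was 7074, 15400, 16830 and 12880 in TBI WBC, against 17820, 27570, 23720 and 20850 in sham WBC. TBI 1 was lowest here, as it was in Ube2b, Ube2v1, Ube2l3, Ube2f and Ube2d3. In Ube2h and Ube2l6 the lowest library was instead TBI 4, and in Ube2n it was TBI 3. Gata1, a defining factor of early red cell precursors, was listed between 0 and 0.188 FPKM in WBC, unlike other genes of the list. Klf1, for one, stood at 29.1 to 93.45 FPKM in TBI WBC and 116.5 to 224 FPKM in sham WBC. The reason for the low values of the Gata1 row, and whether RNA of such precursors was present or absent, was not tested. The 11 tested platelet genes were also all below 0, 8 of them at that p, with sums of 2543 to 7541 FPKM in TBI WBC and 8219 to 11060 FPKM in sham WBC. The sums overlapped between the groups for T cell markers, at 609 to 997 FPKM in TBI and 631 to 872 FPKM in sham, for B cell markers, at 437 to 811 and 668 to 873 FPKM, and for myeloid markers, at 1037 to 2227 and 1531 to 2025 FPKM. Cytotoxic cell markers ran the other way: all 6 were above 0 in TBI WBC, 3 of them at an unadjusted p under 0.05 and none past an adjusted p of 0.05 in limma, with a median of 0.39 and sums of 305 to 571 FPKM in TBI WBC and 257 to 350 FPKM in sham WBC, which overlapped. Of these genes Gzmb, which encodes a granzyme, was separated between the groups, at 4.26 to 5.04 FPKM in TBI WBC and 1.66 to 3.69 FPKM in sham WBC. The part of red cell, platelet and cytotoxic cell RNA in the members' differences was not tested, and in such bulk samples fewer cells of a type and less RNA per cell cannot be told apart.

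**Figure D4:**
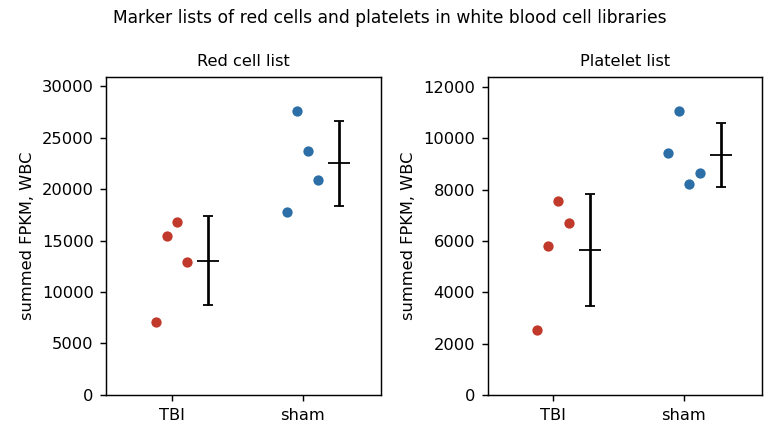
Summed FPKM of the red cell and reticulocyte list (left) and of the platelet list (right) in white blood cells; each point is a library, and the bar beside it the mean with SD (n = 4). The TBI libraries lie below the sham libraries in both lists (7074 to 16830 against 17820 to 27570, and 2543 to 7541 against 8219 to 11060).

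In CA1 the members were nearly even between the groups. Of the 25 tested members 24 differed by less than 0.10 on the log2 scale, and limma adjusted p-values ran from 0.891 to 0.991. The exception was Ube2cbp, the ligase that binds UBE2C, at 2.09, 1.92, 1.96 and 1.72 FPKM in TBI CA1, against 1.25, 1.00, 1.58 and 1.06 FPKM in sham CA1. All TBI libraries were above all sham libraries, by 0.50 ± 0.12 (SE; limma adjusted p = 0.891). It is 1 member of 25, or 4% of them, where 2.54% of all CA1 rows were higher at an unadjusted p under 0.05 and 1.28% were separated upwards, and its level lies close to the minimum of 1 FPKM. No member was lower at that p or separated downwards in CA1, where 2.6% and 1.6% of all rows were. In WBC Ube2cbp averaged 1.695 ± 0.32 FPKM in TBI and 1.56 ± 0.435 in sham, with overlap.

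The most abundant E2 genes of CA1 were Ube2ql1, Ube2d3, Ube2s, Ube2n and Ube2d2. Ube2ql1, a little-studied member of the UBE2Q family, stood at 126, 113, 130 and 126.5 FPKM in TBI CA1, against 138, 123, 131 and 130 FPKM in sham CA1. The groups overlapped, with a difference of -0.08 ± 0.06 (SE; limma adjusted p = 0.891). Ube2s was at 92.8, 87.9, 95.9 and 97.7 FPKM in TBI CA1, against 86.1, 84.8, 82.0 and 102 FPKM in sham CA1. Sham 4 was the highest library and the other sham libraries the lowest, so the difference of 0.08 ± 0.08 (SE; limma adjusted p = 0.894) was within the spread. Ube2n stood at 86.5, 85.3, 84.5 and 80.9 FPKM in TBI CA1, against 77.35, 84.6, 84.1 and 78.0 FPKM in sham CA1, again with overlap (0.06 ± 0.05, SE; limma adjusted p = 0.891). Choroid plexus RNA, from tissue beside the hippocampus, varied widely between CA1 libraries, with marker sums of 180 to 2739 FPKM in TBI and 18.8 to 1313 FPKM in sham, while the summed FPKM of the E2 genes spanned only 1153 to 1182 and 1140 to 1188.

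Whether the difference between TBI and sham was unequal in the 2 tissues was tested by the interaction term of a single limma model. It covered 7570 genes tested in both tables, of which 0.41% passed an adjusted p of 0.05, 0.357% with the lower difference in WBC. The model took a common spread per gene for both tissues and treated all 16 libraries as independent. Whether CA1 and WBC libraries share rats is unknown. Among 23 members 1 passed, with the lower difference in WBC: Ube2b, whose difference in WBC minus that in CA1 was -0.64 ± 0.13 (SE, limma adjusted p = 0.0432). In WBC alone Ube2b did not pass (limma adjusted p = 0.127). In all 4 TBI libraries of WBC it was below the sham libraries, while the CA1 groups overlapped. That call was lost under 14 of 27 alternative settings, over which the adjusted p ran from 0.0168 to 0.165; leaving out any 1 of the CA1 libraries other than sham 1, or WBC TBI 4, sham 1, sham 2 or sham 3, ended it (adjusted p = 0.0574 to 0.12), as did quantile normalization (-0.34, adjusted p = 0.165). Ube2v1 was next, at -0.98 ± 0.23 (SE; limma adjusted p = 0.0706), followed by Ube2l3 at -0.31, Ube2h at -0.59 and Ube2l6 at -1.20 (limma adjusted p = 0.0906 to 0.126). At an unadjusted p under 0.05 there were 9 members, 39.1% of the 23, all with a lower difference in WBC than in CA1. Over all genes 12.7% had a lower difference at that p. No member had a higher difference at that p, where 7.09% of all genes did. The remaining 4 of the 9 were Ube2f, Ube2n, Ube2s and Ube2d3 (limma adjusted p = 0.148 to 0.234).

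The levels of the members set the tissues apart as well. The tables were normalized separately, so these are values side by side with no test. Ube2ql1 averaged 130.5 ± 6.30 FPKM in sham CA1 and 0.138 ± 0.0645 in sham WBC, a ratio of 945, and Ube2q2l, a gene of the same family, 9.83 ± 0.575 and 0.389 ± 0.112. Ube2v2 (27.9 and 8.29 FPKM) had a ratio of 3.36 and Ube2e3 (66.0 and 22.4 FPKM) one of 2.95. At the other end Ube2l6 averaged 2.89 ± 0.55 FPKM in sham CA1 and 20.2 ± 8.92 in sham WBC, Ube2v1 15.6 ± 1.01 and 54.15 ± 10.05, Ube2b 61.5 ± 4.69 and 130.7 ± 17.7, Ube2h 43.85 ± 0.589 and 92.4 ± 10.7, and Ube2f 15.4 ± 0.76 and 29.8 ± 3.83. These 5 genes, higher in sham WBC than in sham CA1, are also those with the lowest differences of TBI minus sham in WBC. Both measures use the same sham WBC values, so the match is partly built in, and it was not tested. Ube2j2, next in the ratio of WBC to CA1 (47.2 and 27.8 FPKM), had a difference of 0.02 in WBC. Ube2q1 (62.1 and 60.7 FPKM), Ube2g2 (22.2 and 22.8) and Ube2g1 (30.2 and 32.9) did not differ between the tables beyond their spread. Ube2t, an E2 of the Fanconi anemia DNA repair pathway, was low in both tissues, at 0.383 ± 0.0828 FPKM in TBI CA1 and 0.287 ± 0.0519 in sham CA1, and it was listed at 0 in 2 TBI WBC libraries. Ube2d4 was at 0.512 ± 0.193 FPKM in TBI CA1 and 0.563 ± 0.209 in sham CA1, and at 0.772 ± 0.135 in TBI WBC and 0.805 ± 0.149 in sham WBC.

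**Figure D5:**
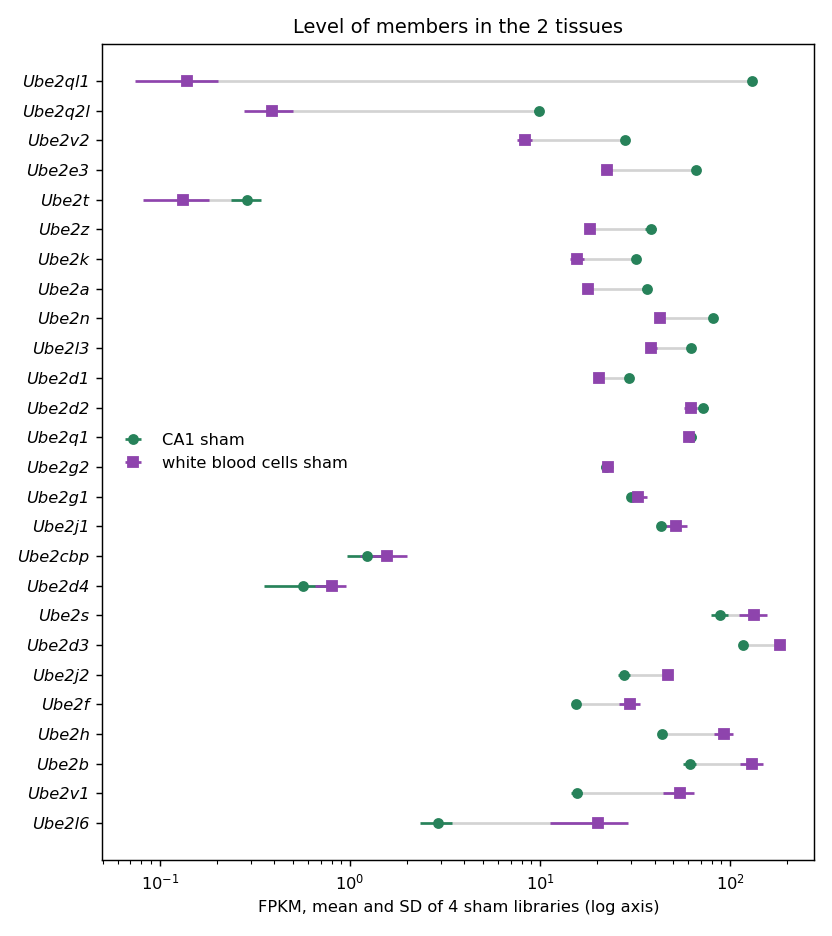
The points give the mean FPKM, with SD, of the 4 sham libraries of CA1 and of white blood cells for members listed in both tables, on a log axis and ordered by the ratio of the tissues. Ube2ql1 (130.5 against 0.138 FPKM) stands at the top and Ube2l6 (2.89 against 20.2 FPKM) at the bottom, and the 2 tables were normalized separately.

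Other steps of the ubiquitin relay were counted in the same tables. No gene of these lists passed an adjusted p of 0.05 in limma in either tissue. Among ubiquitin and its relatives 11 of 12 tested genes were below 0 in WBC, where 50.4% of all rows were, with a median of -0.30. Of them 5 were lower at an unadjusted p under 0.05, where 12.5% of all WBC rows were. Atg12, the modifier of autophagy, averaged 28.7 ± 3.67 FPKM in TBI WBC and 35.9 ± 1.88 in sham WBC, a difference of -0.33 (limma adjusted p = 0.151). In CA1 8 of 12 were above 0, with a median of 0.11, where 53.3% of all CA1 rows were below 0. Of the 12, 2 were higher at that p, where 2.54% of all CA1 rows were. One of them was Sumo2, a modifier of the ubiquitin family, at 82.0 ± 13.4 FPKM in TBI and 61.3 ± 10.6 in sham, with separate groups and a difference of 0.42 (limma adjusted p = 0.891). Of the E1 enzymes 7 of 10 were above 0 in WBC, with Uba7 at -0.77 and Uba1, the main ubiquitin E1, at -0.16, and 6 of 9 were below 0 in CA1, with Nae1 at -0.10 and Uba6 at -0.08. E2 genes under other names were below 0 in 5 of 7 in WBC, 3 of them at that p, with the autophagy E2 Atg3 at -0.32 and Tsg101 at -0.48, and above 0 in 5 of 7 in CA1, with Tsg101 at 0.06 and Cdc34 at 0.08.

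E3 ligases were nearly even in WBC, with 23 of 41 below 0 and a median of -0.02; 10 were lower and 4 higher at an unadjusted p under 0.05, where 12.5% and 7.82% of all WBC rows were. Itch (-0.27) and the cullin Cul1 (-0.28) had the smallest p. In CA1 32 of 39 ligases were below 0, where 53.3% of all CA1 rows were, with a median of -0.07 against -0.01 over all rows. Of the 39, 2 were lower at that p, where 2.6% of all CA1 rows were, Wwp2 (-0.16) and Btrc (-0.24). Deubiquitinases, which remove ubiquitin, had 18 of 29 below 0 in WBC, 5 of them at that p and 1 higher, with Bap1 (38.2 ± 6.47 FPKM in TBI and 71.2 ± 7.46 in sham, -0.90) and Otub2 (-0.78) at the smallest p. In CA1 25 of 29 were below 0, with a median of -0.07 and none at that p; Otub1 was at 0.14 and Vcpip1 at -0.22.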

How the data were processed

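Poly-A RNA of 16 libraries was analysed, 4 each of TBI WBC, sham WBC, TBI CA1 and sham CA1. The authors deposited FPKM values, with 1 table for WBC and 1 for CA1. Per the submitters' processing notes the authors aligned with TopHat, TopHat2, Bowtie and Bowtie2 to rn5 and used Cufflinks and Cuffdiff. No version, annotation or normalization setting is named in those notes. Each row has a status from the authors' tool.

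Values were taken as log2(FPKM + 0.5). Rows with a mean of at least 1 FPKM over the 8 libraries of a tissue and status OK throughout were tested with limma 3.58.1 (lmFit, eBayes with trend, 2-sided, R 4.3.3), with Benjamini-Hochberg adjustment over all rows. The interaction model gave each tissue its own mean and used 1 row per symbol. Code was tested on simulated data. Samples were grouped by title.

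Library values are printed for members with an unadjusted p under 0.05 or separate groups, and for the 5 most abundant per tissue; 2 genes per list of the ubiquitin relay are named by smallest p. Some genes that count in the totals are not reported here by name. Isg15, Gata1, Klf1, Gzmb and the ratios between members are not named by that rule. They were picked with their values in view. The members and lists were chosen with earlier results of these data known. The alternatives tried were a pseudocount of 0.1 or of 1, dropping the filter or raising it to 5 FPKM, scaling by median ratios or by quantiles, keeping every status, limma without trend, with robust variances or sample weights, a replicate block, and leaving out each library. Promoters and pseudogene names are from RefSeq (GRCr8), which matched all 28 symbols, 2 of them as synonyms. Figures used matplotlib 3.10.9.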

Additional observations from a re-analysis of the deposited data

Results flagged for a closer look

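In 7 of 98 groups of 4 libraries, over all tested members, 1 library stood far from the other 3; chance gives about 1 in 20 groups. In CA1 these were Ube2a in TBI 1 (39.2 FPKM, the others 36.8 to 37.1), Ube2f in sham 1 (14.3 FPKM, the others 15.8 to 15.9), Ube2g1 in sham 1 (32.1 FPKM, the others 29.4 to 29.8) and Ube2q1 in sham 1 (56.1 FPKM, the others 63.7 to 64.8). In WBC they were Ube2g1 in TBI 1 (28.5 FPKM, the others 30.6 to 30.7), Ube2h in sham 3 (108 FPKM, the others 85.7 to 89.2) and Ube2j2 in sham 2 (45.2 FPKM, the others 47.7 to 48.1). CA1 sham 1 held 3 of the 7.

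The difference of Ube2b in WBC minus that in CA1 was -0.64 on the log2 scale and just passed the threshold (interaction term of limma, adjusted p = 0.0432). It no longer passed under 14 of 27 alternatives, over which the adjusted p ran from 0.0168 to 0.165.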

How the results depend on the processing

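No alternative brought a member past an adjusted p of 0.05 in WBC or in CA1, where rows called in the whole table numbered 0 to 4 and 1 to 3 (0 and 1 at the main settings). The number of members called for the interaction, 1 at the main settings, was 0 with no filter, median-ratio scaling or quantile normalization, 3 with sample weights and 3 with the replicate block, and 0 to 3 over the fits that drop 1 library. Whether equal replicate numbers mark pairs could not be decided from so few samples. Within a tissue, deviations of same-numbered samples correlated at 0.023 to 0.24 in CA1 and -0.00821 to 0.147 in WBC. Numbers 1 and 4 in CA1 and number 1 in WBC correlated best with their own number, and the others did not. The replicate block moved no other count of called members. The members' median difference in WBC was -0.10, became -0.019 with quantile normalization, and ranged from -0.13 to -0.081 as single libraries were dropped. Quantile normalization also turned Ube2d3 (0.13) and Ube2e2 (0.13) in WBC, Ube2d3 in the interaction (0.16) and Ube2d2 in CA1 (-0.0025), and Ube2d2 in CA1 ranged from -0.020 to 0.046 as single libraries were dropped; the cause was not tested. The other members whose single library values are printed for a tissue kept their sign there under the alternatives run. Signs of the remaining members were counted only under the scalings: of 24 in WBC, 13 were below 0 after quantile normalization and 18 after median-ratio scaling, against 18 at the main settings, so members beyond Ube2d3 and Ube2e2 also turned. Of 25 in CA1, 11 and 8 were below 0, against 8. Counting rows that name a second gene, an alternative chosen after the data were seen, called no member. Depth is estimated only relative to sham 1, so no counting error can be given, which weighs most on Ube2cbp, Ube2t and Ube2d4.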
